A study of Oryza sativa with 4 samples.

Results

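The copper miRNAs and osa-miR12477 were followed through small RNA lists of salt-treated and untreated rice seedlings. Every entry with the miRBase name mir397, mir398 or mir528 was taken (miR397, miR398 and miR528 below), together with the unnamed entries whose hairpin on the minus strand of chromosome 2 covers the position of osa-miR12477. This gave 12 of the 1292 listed entries, which hold 5 of 783 distinct mature sequences and lie at 4 hairpins. They comprise 3 entries in NaCl-treated root (TR), 4 in control root (CR), 3 in NaCl-treated shoot (TS) and 2 in control shoot (CS). Pokkali, a salt-tolerant rice cultivar, was grown hydroponically, and on day 9 the seedlings received 1.5% NaCl through the root or no NaCl, with root and shoot harvested 9 h later. There was 1 library for each of the 4 conditions, so no value has a replicate error, and a ratio between 2 libraries compares those libraries and not the conditions. The entries were selected on their names, but these families had been chosen by their NaCl over control ratios in these libraries, so those ratios are given as a description. Fewer cells that make a miRNA and fewer copies in each cell cannot be told apart in whole organs.

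Plants use copper in plastocyanin, in Cu/Zn superoxide dismutases and in secreted multicopper enzymes such as laccases and ascorbate oxidases. The copper miRNAs act on mRNAs of these proteins and in Arabidopsis are induced when copper is short, through the factor SPL7. miR397 acts on laccase mRNAs, miR398 on mRNAs of Cu/Zn superoxide dismutases and of their copper chaperone, and the monocot miRNA miR528 on an ascorbate oxidase mRNA. osa-miR12477 was a predicted miRNA that the study detected by Northern blot. By mapping of cut mRNA ends (RACE) and a dual-luciferase assay, the study reported L-ascorbate oxidase and a monocopper oxidase-like protein as targets of osa-miR12477. By RT-qPCR it reported less L-ascorbate oxidase mRNA with NaCl.

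The mature sequences are shown because osa-miR12477 and miR397 turn out to be shifted readings of closely similar hairpin arms, and because the miR528 hairpin was listed by a different arm in root and shoot. Capitals mark the seed, bases 2 to 8, and positions are on the rice genome IRGSP-1.0 as deposited.
miR398 (chr7:14598627-14598647, minus strand): tGTGTTCTcaggtcgcccctg
miR528-5p (chr3:1667330-1667350, plus strand): tGGAAGGGgcatgcagaggag
miR528-3p (chr3:1667395-1667415, plus strand): cCTGTGCTtgcctcttccatt
miR397 (chr6:28489795-28489815, plus strand): tCATTGAGtgcagcgttgatg
osa-miR12477 (chr2:3280864-3280885, minus strand): tTGAGTGCagcgttgatgaacc

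No seed was shared among the 5 sequences. All had a single match in the genome, and no gene annotation of this build was used here, so whether the hairpins lie in genes is not given. osa-miR12477 has 22 nt and the others have 21 nt.

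Below, capitals mark the 18 bases that miR397 and osa-miR12477 have in common. The third sequence was not among the entries chosen. It is listed without a miRBase name and equals osa-miR12477 without its last base.
miR397: tcaTTGAGTGCAGCGTTGATG
osa-miR12477: TTGAGTGCAGCGTTGATGaacc
21-nt relative: TTGAGTGCAGCGTTGATGaac

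osa-miR12477 starts 3 bases after miR397 in the shared frame, and this shift gives it another seed. The study describes plant miRNAs as almost fully complementary to their targets, so another seed alone does not show other targets. Read in the miR397 frame, the osa-miR12477 hairpin holds 21 bases that equal miR397 at 20 positions, with C2T as the difference, counted from the 5′ end of miR397 with its base first. Read in the osa-miR12477 frame, the miR397 hairpin equals osa-miR12477 at 21 of 22 positions, with C22A as the difference, counted from the 5′ end of osa-miR12477 with its base first. The 21-nt relative lacks that last position, occurs in both hairpins and is recorded with 2 genomic matches. Its reads could therefore come from either locus, whereas osa-miR12477 differs from the chromosome 6 hairpin and miR397 from the chromosome 2 hairpin. Each of these differences is a single base of the reference genome, and the genome of Pokkali itself was not examined. The 21 bases in the miR397 frame of the chromosome 2 hairpin were not a listed sequence in any library. Whether miRBase already holds these bases or this hairpin, as a miR397 or under another name, was not checked here. The hairpin is therefore called unnamed only as far as the lists go. Each library lists a single sequence for a hairpin, and here that was osa-miR12477 in every library. The lists therefore cannot show whether these 21 bases were sequenced.

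The deposited hairpins of these loci are shown with the listed mature sequence in capitals, as they carry the position of each arm. For miR528 both arms are in capitals, since each was the mature sequence in some library.
miR397 hairpin (chr6:28489785-28489896, plus strand): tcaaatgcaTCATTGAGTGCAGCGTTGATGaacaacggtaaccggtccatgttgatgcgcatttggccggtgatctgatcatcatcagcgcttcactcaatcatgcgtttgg
osa-miR12477 hairpin (chr2:3280774-3280902, minus strand): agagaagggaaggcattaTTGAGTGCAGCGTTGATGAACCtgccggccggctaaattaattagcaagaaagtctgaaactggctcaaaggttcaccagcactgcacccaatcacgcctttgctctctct
miR528 hairpin (chr3:1667317-1667424, plus strand): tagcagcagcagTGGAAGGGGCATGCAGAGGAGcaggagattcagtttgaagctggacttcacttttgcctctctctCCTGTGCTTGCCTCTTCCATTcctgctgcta

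**Figure D1:**
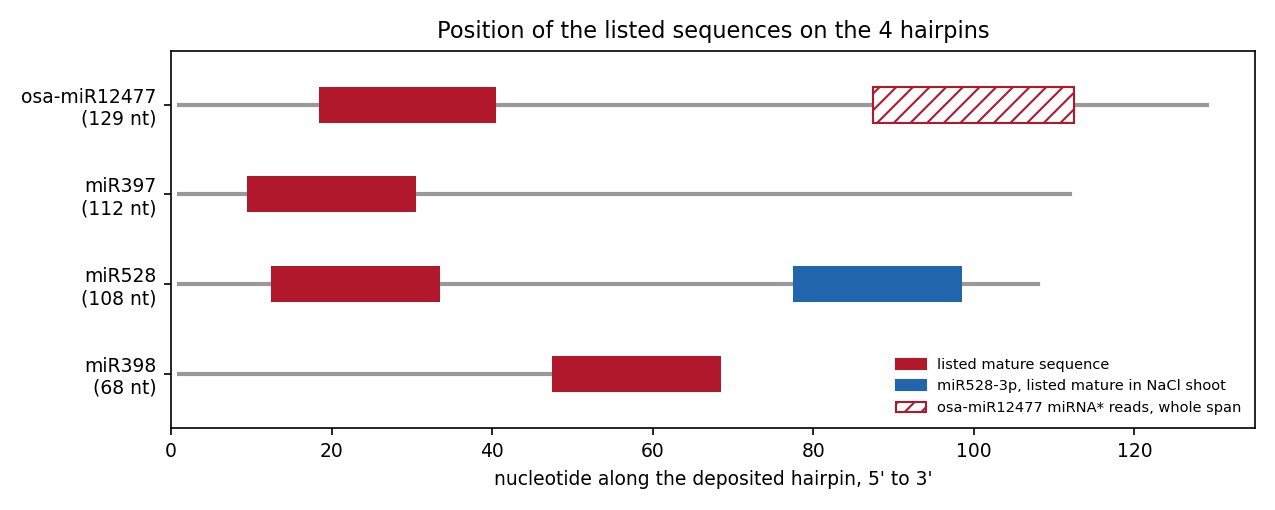
Position of the listed sequences in nucleotides along each of the 4 deposited hairpins, drawn 5′ to 3′. Grey lines are hairpins of 129, 112, 108 and 68 nt, filled boxes are listed mature sequences and the hatched box spans the miRNA* reads of osa-miR12477. osa-miR12477 and miR397 lie on the 5p arm and miR398 on the 3p arm, while miR528 was listed by either arm.

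The map of the hairpins shows osa-miR12477 and miR397 on the 5p arm, at bases 19 to 40 of 129 and at bases 10 to 30 of 112. miR398 occupies the last 21 bases of its hairpin of 68 nt, the 3p arm. The deposited folding energy was -56.7 kcal/mol for the osa-miR12477 hairpin, -57.8 kcal/mol for miR397, -49 kcal/mol for miR398 and -63.7 kcal/mol for miR528. Per 100 nt, the miR398 hairpin was the most stable of the 4 with -72.1 kcal/mol, and 3.70% of the 864 distinct hairpins in the lists had a lower value. The osa-miR12477 hairpin had the weakest fold of the 4 per 100 nt, -44.0 kcal/mol, against a median of -41.0 kcal/mol over all hairpins. Divided further by G+C content, this is a minimal folding energy index of 0.900 for osa-miR12477, 1.07 for miR397, 1.12 for miR528 and 1.14 for miR398. In the deposited folds, 3 of the 22 bases of osa-miR12477 were unpaired, compared with 2 of 21 in miR397 and in each arm of miR528, and 1 of 21 in miR398.

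The lists rest on 12126876 reads in TR, 6887961 in CR, 9765004 in TS and 13116913 in CS, and abundance is in reads per 1000000 of these (RPM). A single read therefore equals 0.0825, 0.145, 0.102 and 0.0762 RPM in the same order of libraries. The listed sequences have 20 to 22 nt and at least 2 reads. A sequence that is not listed may have been sequenced, and on its own it was assigned no count of 0 and no ratio. The 5 sequences together took 0.950% of all listed mature reads in TR, 0.256% in CR, 0.0970% in TS and 0.349% in CS. All intervals below are exact 95% intervals for counting error alone. They treat reads as independent, which reads after amplification are not, so they can be too narrow.

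osa-miR12477 had the most reads of the sequences in every library, although in TS its interval overlaps those of miR528-3p and miR398. It had 295 reads in TR and 63 in CR, which are 24.3 RPM (21.6 to 27.3) and 9.15 RPM (7.03 to 11.7). In shoot it had 14 reads in TS and 185 in CS, which are 1.43 RPM (0.784 to 2.41) and 14.1 RPM (12.1 to 16.3). Salt-treated root thus had the highest and salt-treated shoot the lowest level, with control shoot above control root, and no pair of the 4 intervals overlaps. Among predicted miRNAs it ranked 2 of 198 in TR, 3 of 91 in CR, 23 of 272 in TS and 4 of 316 in CS.

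miR398, which acts on superoxide dismutase mRNAs, had 65 reads in TR and 5 in CR, or 5.36 RPM (4.14 to 6.83) and 0.726 RPM (0.236 to 1.69). It had 4 reads in TS and 27 in CS, or 0.410 RPM (0.112 to 1.05) and 2.06 RPM (1.36 to 2.99). The order of the libraries was TR, CS, CR and TS, the same as for osa-miR12477, but the intervals of miR398 in CR and CS and in CR and TS overlap. Its rank among conserved sequences was 12 of 26 in TR, 26 of 31 in CR, 35 of 39 in TS and 20 of 37 in CS.

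miR397, the laccase regulator, was listed in CR alone, with 10 reads or 1.45 RPM (0.696 to 2.67). The same chromosome 6 hairpin was listed in TR and CS under the 21-nt relative, with 52 reads or 4.29 RPM (3.20 to 5.62) in TR and 14 reads or 1.07 RPM (0.584 to 1.79) in CS. No hairpin was listed more than 1 time within a library. The hairpin that carries the name miR397 in CR thus has an entry in 3 of the 4 libraries, and the name alone would show it in 1. Of 243 hairpin loci listed in at least 2 libraries, 72 (29.6%) had more than 1 mature sequence across libraries, and 4 loci carried a conserved name in some library and none in another.

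miR528 was listed as its 5p sequence in both roots, with 20 reads in TR and 7 in CR, or 1.65 RPM (1.01 to 2.55) and 1.02 RPM (0.409 to 2.09). These intervals overlap. In TS the 3p sequence was listed instead, with 12 reads or 1.23 RPM (0.635 to 2.15), and no miR528 entry was listed in CS. The other families of the copper list, miR408, miR857 and miR1444, had no entry in any of the 4 lists, so 3 of 6 families were listed. The copper list was not limited to families known from rice. Whether the rice genome holds a locus of each was not checked, so a missing entry does not show a family to be silent.

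**Figure D2:**
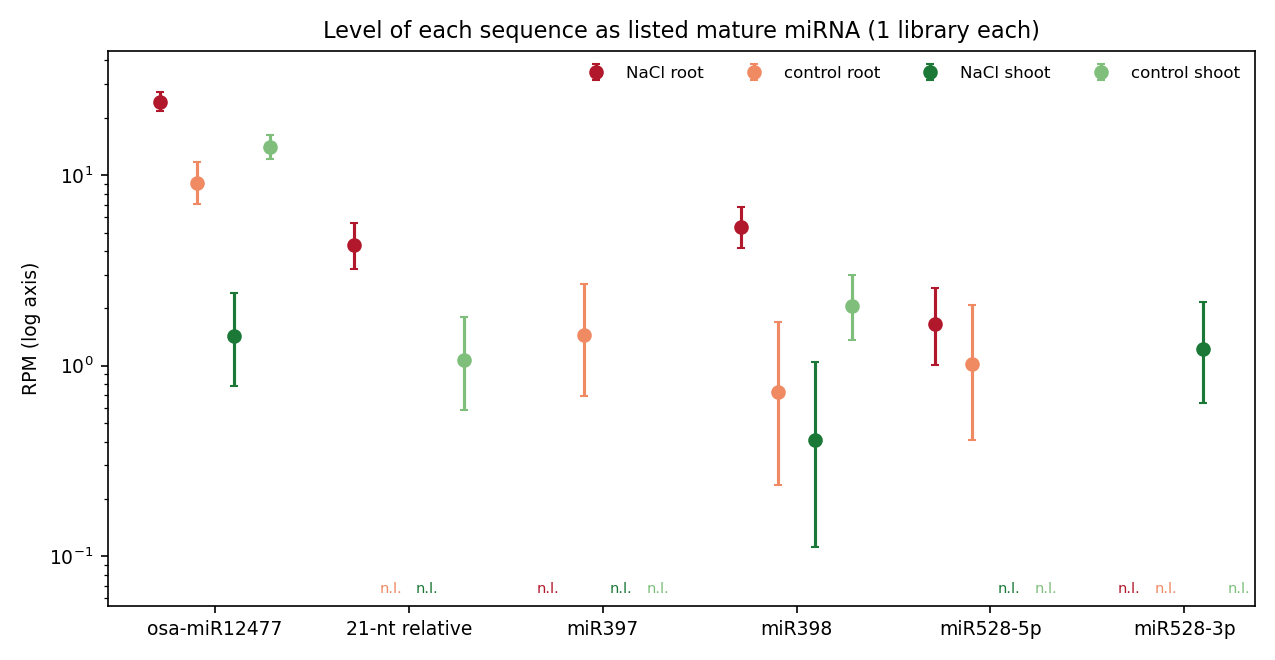
Abundance in RPM (log axis) of the 5 sequences and of the 21-nt relative of osa-miR12477 in each of the 4 libraries. Points are single libraries, bars are exact 95% Poisson intervals for counting error and n.l. marks a sequence that was not listed. osa-miR12477 and miR398 share the order TR, CS, CR and TS, with 24.3 RPM and 5.36 RPM in TR against 1.43 RPM and 0.410 RPM in TS.

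Which members differed between salt-treated and control libraries was described by the RPM ratio, called where it was at least 2 or at most 0.5 and its interval excluded 1. In root, miR398 and osa-miR12477 were called higher in TR, 2 of the 3 sequences that could be compared, and none was called lower. Of all 46 sequences compared, 10.9% were called higher and 13% lower. miR398 had the highest ratio of the 46, 7.38 (3.01 to 23.5), and osa-miR12477 the third highest, 2.66 (2.02 to 3.55). miR528-5p ranked 7 of 46 and was not called, its ratio being 1.62 (0.659 to 4.54). It was called when the counts were divided by raw, trimmed or NONCODE-unaligned reads. The median ratio of the 46 sequences was 0.804.

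In shoot, both sequences that could be compared were called lower in TS. Of the 96 sequences compared, 7.29% were called lower and 22.9% higher. osa-miR12477 had the lowest ratio of the 96, 0.102 (0.0545 to 0.175), and miR398 the next lowest, 0.199 (0.0506 to 0.571). The median ratio of the 96 sequences was 1.34. The plot of ranked ratios shows both miRNAs at the top of the root comparison and at the bottom of the shoot comparison. By Northern blot, the study reported that osa-miR12477 rose with NaCl in root and in shoot, with more signal in shoot. It also reported stronger in situ staining in salt-treated leaf. The shoot ratio of osa-miR12477 here goes the other way, and the reason was not tested.

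**Figure D3:**
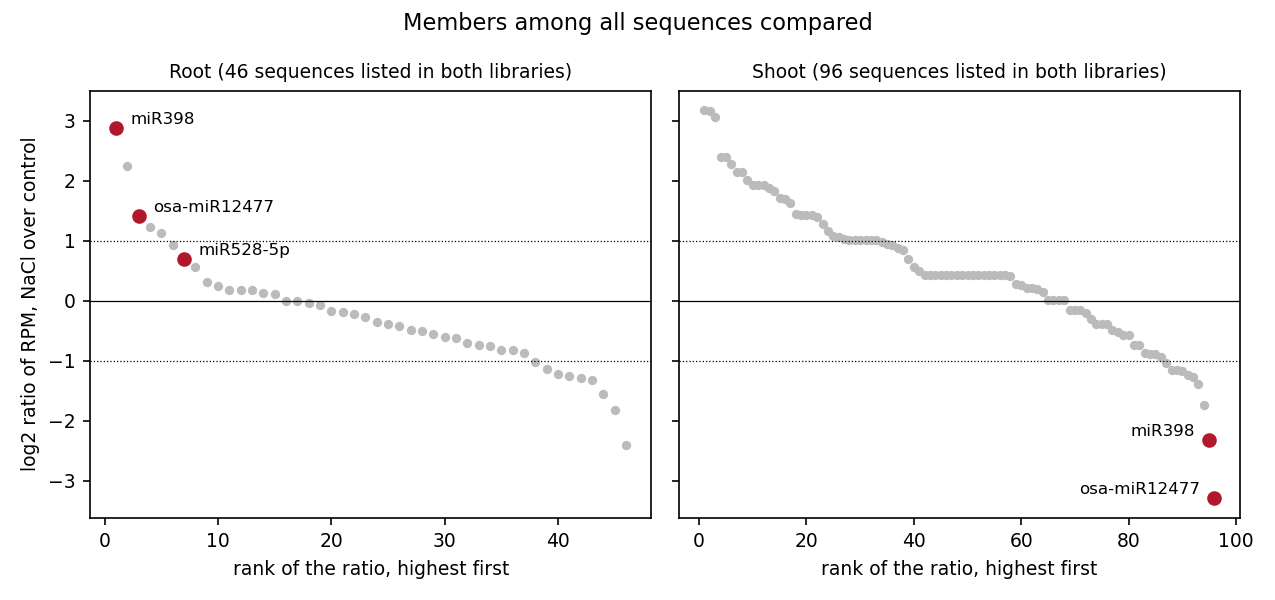
Log2 ratio of RPM in NaCl-treated over control libraries for all 46 sequences compared in root and all 96 compared in shoot, ranked from the highest. Red points are the miRNAs described here, grey points are all others, and dotted lines mark a ratio of 2 and of 0.5. miR398 ranks first in root (7.38) and osa-miR12477 last in shoot (0.102).

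The reversal between organs was expressed as the root ratio divided by the shoot ratio. This was 37.1 for miR398 (8.01 to 191) and 26.2 for osa-miR12477 (13.9 to 51.5). They were the highest and the second highest of the 29 sequences listed in all 4 libraries, whose median was 0.650. Of the 29, 4 had a ratio above 1 in root and below 1 in shoot, and 8 had the reverse. miR398 and osa-miR12477 were the only pair called higher in root and lower in shoot. With 1 library for each condition, the difference between organs has no replicate check. It is built from the NaCl ratios by which these families were chosen, so the ranks restate that choice.

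Between organs, both miRNAs were called higher in salt-treated root than in salt-treated shoot, while 17% of the 47 sequences compared were called higher. The ratio of TR to TS was 17.0 (9.95 to 31.4) for osa-miR12477 and 13.1 (4.87 to 49.5) for miR398, the highest and the second highest of the 47. With TMM factors the ratio was 28.3 for osa-miR12477 and 21.8 for miR398. The TR and TS values also entered the NaCl ratios by which these families were chosen, so these ranks restate that choice in part. Without NaCl the root to shoot ratios of both miRNAs lay below 1. The ratio of CR to CS was 0.648 (0.479 to 0.868) for osa-miR12477, which was not called, and 0.353 (0.106 to 0.929) for miR398, which was called lower, against 22% of 50 sequences called lower. osa-miR12477 was called lower there when counts were divided by raw (0.391), trimmed (0.421) or NONCODE-unaligned reads (0.425). The call of miR398 rests on 5 reads in CR and is lost with the median of ratios and with TMM factors.

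miR398 was also the sequence with the profile most like that of osa-miR12477 across the 4 libraries. After centring of log2 RPM on each sequence's mean, the root mean square difference between them was 0.70, compared with 1.11 and 1.23 for the next nearest sequences to osa-miR12477, a pair of miR166 sequences, and a median of 1.99 over the 28 others. For miR398 the next nearest were a pair of unnamed sequences at 1.31 and 1.34. These distances rest on 4 libraries that every sequence shares and carry no test. They use the same values as the NaCl ratios by which these miRNAs were chosen, so the likeness restates that choice.

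The listed reads of osa-miR12477, its 21-nt relative and miR397 were also added. An unlisted sequence adds nothing to such a sum, as a count of 0 would, so the sums hold osa-miR12477 and the relative in TR and CS, osa-miR12477 and miR397 in CR, and osa-miR12477 alone in TS. The sums were 347 in TR, 73 in CR, 14 in TS and 199 in CS. In RPM these are 28.6, 10.6, 1.43 and 15.2. The order of the libraries is the same as for osa-miR12477 alone, and the ratio of TR to CR was 2.70 with the sums, which do not hold the same sequences in both libraries.

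**Figure D4:**
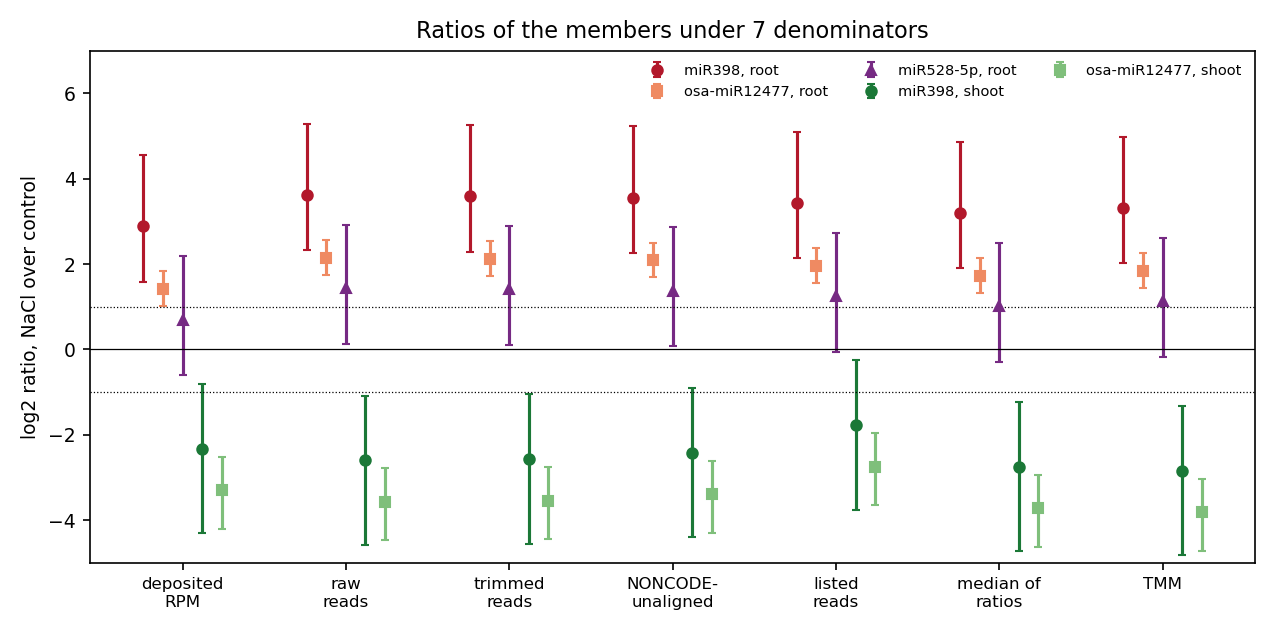
Log2 ratio of NaCl-treated over control for miR398, osa-miR12477 and miR528-5p in root and for miR398 and osa-miR12477 in shoot, with the deposited RPM and 6 other denominators. Bars are exact 95% intervals for counting error and dotted lines mark a ratio of 2 and of 0.5. The root ratios of miR398 lie between 7.38 and 12.3 and those of osa-miR12477 between 2.66 and 4.43.

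A miRNA is cut from its hairpin as a duplex, and the strand from the opposite arm, the miRNA*, is usually less abundant. osa-miR12477 had miRNA* reads in both root libraries, 14 beside 295 mature reads in TR and 4 beside 63 in CR. The miRNA* made up 4.53% of the reads of the locus in TR (2.50% to 7.49%) and 5.97% in CR (1.65% to 14.6%), shares that do not differ beyond counting error. In shoot no miRNA* read was recorded, 0 of 14 reads in TS and 0 of 185 in CS, where a limit of 3 reads corresponds to a share of 21.4% in TS and 1.62% in CS. Both root libraries together gave 18 of 376 reads, 4.79% (2.86% to 7.46%), and both shoot libraries 0 of 199, where the limit of 3 reads is 1.51%. The exact interval of CS lies below that of TR and overlaps that of CR, and TS has too few reads to compare. Of 11 entries with miRNA* in TR and at least 100 reads in CS, 2 had no miRNA* in CS, osa-miR12477 included. Without NaCl in either organ, 3 of 10 entries with miRNA* in CR and at least 100 reads in CS had none in CS, again osa-miR12477 included.

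The miRNA* reads of osa-miR12477 are shown because their ends define the duplex.
7 reads in TR and 2 in CR: ttcaccagcactgcacccaatc
5 reads in TR and 2 in CR: tcaccagcactgcacccaatc
1 read in TR: ttcaccagcactgcacccaat
1 read in TR: aggttcaccagcactgcaccc

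Paired with osa-miR12477 in the deposited fold, the most frequent miRNA* left 3′ overhangs of 2 nt on both strands, the form that Dicer-like enzymes usually leave. The next most frequent one left 3 nt on osa-miR12477 and 2 nt on the miRNA*. Set against the miR397 frame of the same hairpin, the most frequent miRNA* left no 3′ overhang, and both 3′ ends were recessed (-2 nt and -1 nt). The TR and CR entries of osa-miR12477 are 2 of the 134 predicted entries with any miRNA* reads. No miRNA* was recorded for miR398 in 101 reads over the 4 libraries, where the limit of 3 reads is 2.97%, nor beside the 10 reads of miR397.

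At the miR528 hairpin the prevailing arm differed between root and salt-treated shoot. Counting mature and miRNA* reads, the 5p arm had 20 and the 3p arm 6 reads in TR, and the 5p arm had 7 and the 3p arm 1 in CR. In TS the 5p arm had 1 read and the 3p arm 12. The 3p share was thus 23.1% in TR (8.97% to 43.6%) and 12.5% in CR (0.316% to 52.7%), against 92.3% in TS (64.0% to 99.8%). The interval of TS overlaps that of neither root library. In RPM, the 5p arm had 1.65 in TR, 1.02 in CR and 0.102 in TS, and the 3p arm had 0.495 in TR, 0.145 in CR and 1.23 in TS. The duplex of the listed 5p and 3p sequences had 3′ overhangs of 2 nt on both strands in all 3 libraries. With only these exact sequences counted, the 3p share in TR was 13.0% (2.78% to 33.6%) and the shares in CR and TS were as above.

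**Figure D5:**
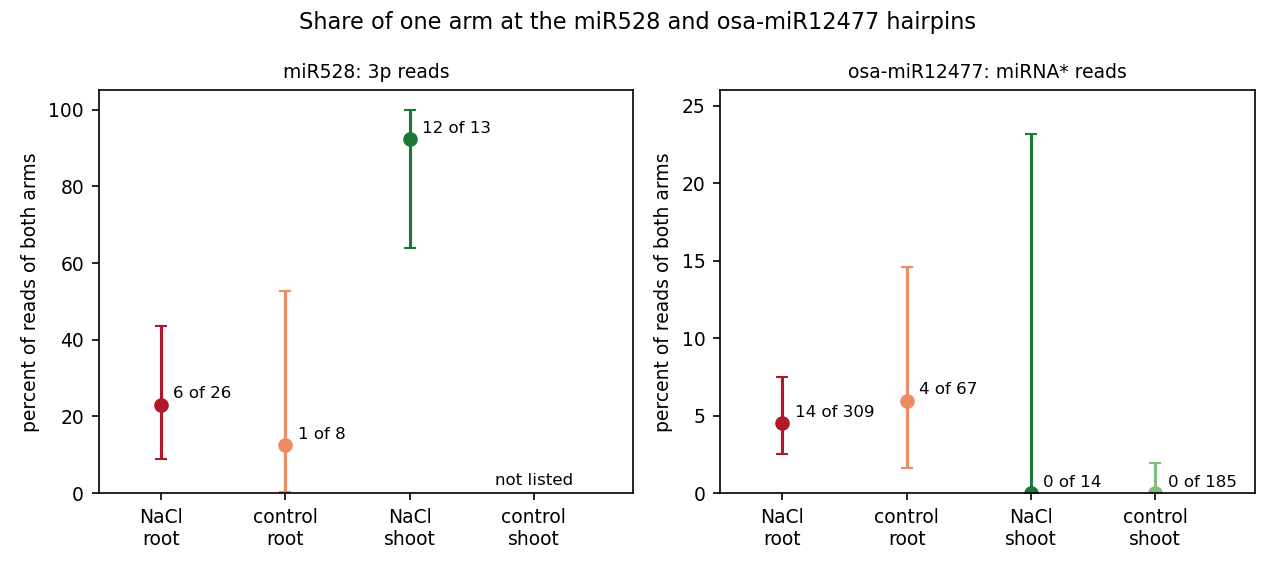
Share of reads from the 3p arm at the miR528 hairpin (left) and share of miRNA* reads at the osa-miR12477 hairpin (right), in percent of the reads of both arms in each library. Bars are exact 95% binomial intervals and the labels give the reads. The 3p share of miR528 was 92.3% in TS and 23.1% and 12.5% in TR and CR, and the miRNA* share of osa-miR12477 was 0 in both shoot libraries.

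Of the 243 hairpin loci listed in at least 2 libraries, 5 (2.06%) had mature sequences on different arms, and miR528 was 1 of only 2 such loci among the 71 that carried a conserved name. Without a miR528 entry in CS, the arm shares in shoot cannot be compared between salt-treated and control seedlings.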

How the data were processed

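Small RNA was sequenced by the authors as single-end Illumina reads from roots and shoots of Pokkali seedlings with and without NaCl. They trimmed the reads (cutadapt per the labels, version not given in the sources used here), removed other non-coding RNA, searched miRBase and predicted hairpins on the rice genome IRGSP-1.0. The deposited abundance counts reads of each mature sequence (count), and the deposited RPM is that count per 1000000 reads used for prediction, with a further deposited column of its log2. The deposited hairpin columns give G+C in percent, folding energy and a p-value of the fold from the prediction tool, which was 0.0099 for every entry described. Lines without content, 3 in TR, 3 in CR, 4 in TS and 5 in CS, were not analysed here.

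Each distinct sequence listed in both libraries was compared by the ratio of RPM, whose 95% interval was exact (conditional, Clopper-Pearson). The call rule was tested on simulated data. The difference between organs was an exact conditional odds ratio scaled by depth. With 1 library per condition no p-value or SD was computed. Levels have exact Poisson and shares exact binomial intervals. A share of 0 is given the limit of 3 reads. Overhangs were read from the deposited folds. Every listed entry of the chosen families was named, as were any other listed sequence sharing at least 15 bases with one of them and the 3 nearest profiles. The members and lists were chosen with earlier results of these data known. Alternatives changed the denominator, the minimum of 10 reads, the fold or the counting unit. Python 3.11.15, scipy 1.17.1, RNAfold 2.7.2, R 4.3.3 and edgeR 4.0.16 (TMM factors alone) were used.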

Additional observations from a re-analysis of the deposited data

Results flagged for a closer look

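Both miRNAs that could be compared in both organs moved in opposite directions. The ratio of NaCl-treated over control for miR398 was 7.38 in root and 0.199 in shoot, and that of osa-miR12477 was 2.66 in root and 0.102 in shoot. These families were chosen by the same ratios, so the opposite directions restate that choice. With 1 library per condition, the difference was not tested beyond counting error.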

How the results depend on the processing

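No paired analysis was possible because each condition has 1 library and the labels give no replicate numbers. Neither direction nor call of the NaCl ratios of miR398 and osa-miR12477 changed under any alternative run in either organ. Over the 6 other denominators the root ratio was 9.19 to 12.3 for miR398 and 3.31 to 4.43 for osa-miR12477, and the shoot ratio was 0.139 to 0.291 and 0.0710 to 0.149 for the same miRNAs. The root ratio over the shoot ratio was 37.1 to 74.7 and 26.2 to 52.7, alternatives chosen after seeing the data. The ratio of TR to TS was 16.3 to 28.3 for osa-miR12477 and 12.6 to 21.8 for miR398, and both stayed called. The denominator moved the median log2 ratio of all sequences in root between -0.32 with the deposited RPM and 0.42 with raw reads, and in shoot between -0.09 with TMM factors and 0.98 with the sum of listed reads.

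The root ratio of miR528-5p met the rule with raw reads (2.70), trimmed reads (2.65) and NONCODE-unaligned reads (2.59). The ratio of CR to CS of osa-miR12477 met the rule with raw reads (0.391), trimmed reads (0.421) and NONCODE-unaligned reads (0.425), and under the 1.5-fold rule (0.648). That of miR398 missed it with the median of ratios (0.434) and TMM factors (0.416). Sequences called in that comparison were accordingly 2 with raw, trimmed or NONCODE-unaligned reads and under the 1.5-fold rule, and 0 with the median of ratios, TMM factors or at least 10 reads in both libraries. The filter of 10 reads left 1 sequence in each of the other 3 comparisons, which was called (1). It removed the other sequences, miR398 in every comparison. Folding energies from RNAfold lay within 5% of the deposited ones for all 4 hairpins. Depth limits miR398, miR397 and miR528, each of which rests on 10 reads or fewer in some library.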
